A study of Mus musculus with 6 samples.

Results

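The genes described are those of the cytosolic ribosomal proteins, which together with ribosomal RNA form the small and large subunits of the ribosome. A gene was included if its symbol was Rpl or Rps followed by a number and at most 1 of the letters a, x or l, or was Rplp0, Rplp1, Rplp2 or Rpsa, and if it had a count of at least 10 in at least 3 of the 6 libraries. In the table of 46095 rows, 83 carried such a symbol and 78 met the count minimum, 30 of the small subunit, 45 of the large subunit and 3 of the P stalk. All 78 were among the 15367 genes tested. The rule did not use the difference between groups.

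RNA was sequenced from kidneys of mice on a C57BL/6 background, with 3 samples treated with DHT (dihydrotestosterone, an androgen that aromatase does not convert to oestrogen) and 3 control samples. The strain field names the polycystic ovary syndrome (PCOS) model for control samples as well as for DHT samples, so the groups rest on the treatment field. Nothing in the labels gives a dose, a duration, an age or the vehicle of the controls. The labels do not say that the samples of a group come from separate animals, so p-values measure only the spread between these samples, which may be technical.

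Libraries held 15054763 to 18624947 counts in the DHT group and 15994714 to 19331942 in the control group. All 14 proximal tubule markers examined were detected. Their summed level was 50149, 26702 and 51087 CPM (counts scaled to a common library size) in DHT libraries 1, 2 and 3 and 25382, 30615 and 25768 CPM in control libraries 1, 2 and 3, with 7 of the 14 above 0 in log2 fold change and 0 called by edgeR. Kap, an androgen-responsive gene of that segment, was the largest part of the sum in every library except control library 1. It had 22454, 5689 and 19886 CPM in DHT libraries and 1548, 7770 and 7502 CPM in control libraries. The log2 fold change of Kap was 1.51 (edgeR adjusted p = 0.251). That of Lrp2, the endocytic receptor megalin, was -0.41 (edgeR adjusted p = 0.209).

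Ribosomal protein genes are expressed in every cell, and their products are needed in equal numbers because a ribosome holds a single copy of nearly every protein. In mammals their messengers begin with a tract of pyrimidines at the 5′ end, the TOP motif (terminal oligopyrimidine), through which the mTORC1 kinase and the RNA-binding protein LARP1 set how strongly they are translated. Most of these messengers are short, and most of the genes have many retrotransposed copies elsewhere in the genome. In the kidney, as in other tissues, ribosome production is known to rise when cells grow.

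Pyrimidine runs lie near the annotated transcription start in most of these genes, and the RefSeq promoter windows (GRCm38.p6) of 8 of them are shown for that reason. Each window runs from 40 bases before the annotated start to 20 bases after it, 5′ to 3′ on the gene's own strand, and runs of at least 8 pyrimidines are in capitals.
Rpl34 (second of 2 starts): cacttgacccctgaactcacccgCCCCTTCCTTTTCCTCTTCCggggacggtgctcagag
Rpl7a: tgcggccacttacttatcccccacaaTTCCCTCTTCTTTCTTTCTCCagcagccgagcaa
Rps25: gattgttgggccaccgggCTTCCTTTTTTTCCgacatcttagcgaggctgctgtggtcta
Rpl4: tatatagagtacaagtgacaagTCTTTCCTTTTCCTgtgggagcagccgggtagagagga
Rps18: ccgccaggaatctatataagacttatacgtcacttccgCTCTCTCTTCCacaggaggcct
Rps10: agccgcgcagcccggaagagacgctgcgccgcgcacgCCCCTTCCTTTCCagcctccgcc
Rpl28: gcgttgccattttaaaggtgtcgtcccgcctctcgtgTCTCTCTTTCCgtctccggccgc
Rpl10: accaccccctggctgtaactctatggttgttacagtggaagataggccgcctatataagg

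These windows lie at chr3:130730318-130730377 for Rpl34 and chr2:26910767-26910826 for Rpl7a, at chr9:44407674-44407733 for Rps25 and chr9:64173347-64173406 for Rpl4, and at chr17:33955646-33955705 for Rps18 and chr17:27635225-27635284 for Rps10. Those of Rpl28 and Rpl10 lie at chr7:4792925-4792984 and chrX:74270776-74270835. The capital run is 20 bases long in Rpl34, 21 in Rpl7a, 14 in Rps25 and Rpl4, 13 in Rps10 and 11 in Rps18 and Rpl28, and the window of Rpl10 holds none. In Rps25 and Rpl4 the run ends before the annotated start, so it is not in the annotated messenger. Of the 57 genes with an entry in the promoter table, 34 (59.6%) held such a run in this window at any of their starts and 23 did not, and 27.2% of all genes in that table held one. In 22 of the 57 (38.6%) the run reached the annotated start or lay beyond it, as in 10.5% of all genes. In the wider window of 50 bases on each side of a start, 50 of the 57 (87.7%) held a run on the gene's strand, as did 39.3% of all 27025 genes in that table. The motif CCGGAAG, searched on both strands over the 300 bases of each entry, was in 24 of the 57 (42.1%) and in 9.93% of all genes. The motif TATAAA was in 5 of the 57 (8.77%) and in 15.7% of all genes. Such letters describe the window and do not show that a factor binds there. The median log2 fold change of DHT over control was 0.31 in the 50 genes with a pyrimidine run and 0.37 in the 7 without.

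Most ribosomal protein genes were somewhat higher in DHT kidneys, but few passed the test across all genes. With edgeR's quasi-likelihood test and Benjamini-Hochberg adjustment over all genes, 3 of the 78 rose at an adjusted p of 0.05 and 0 fell. Over all 15367 genes 437 (2.84%) passed, 1.38% higher and 1.46% lower in DHT, while the 3 are 3.85% of the 78. At an unadjusted p of 0.05, 40 ribosomal protein genes were higher and 2 lower, against 12% of all genes in each direction.

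The direction of the fold change was shared by far more genes than passed the test. The log2 fold change was above 0 in 68 of the 78 genes, against 50.3% of all genes tested. Its median was 0.35, a fold of 1.28, with quartiles of 0.14 and 0.45, while the median of all tested genes was 0.00. The values of the 3 DHT libraries were all above those of the 3 control libraries in 39 of the 78 genes, and all below them in 2, Rps13 and Rpl28. Over all genes, groups did not overlap in 14.8% on the higher side and in 15% on the lower side. In bulk kidney RNA, fewer or more cells of a type and a different amount of RNA per cell cannot be told apart.

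**Figure D1:**
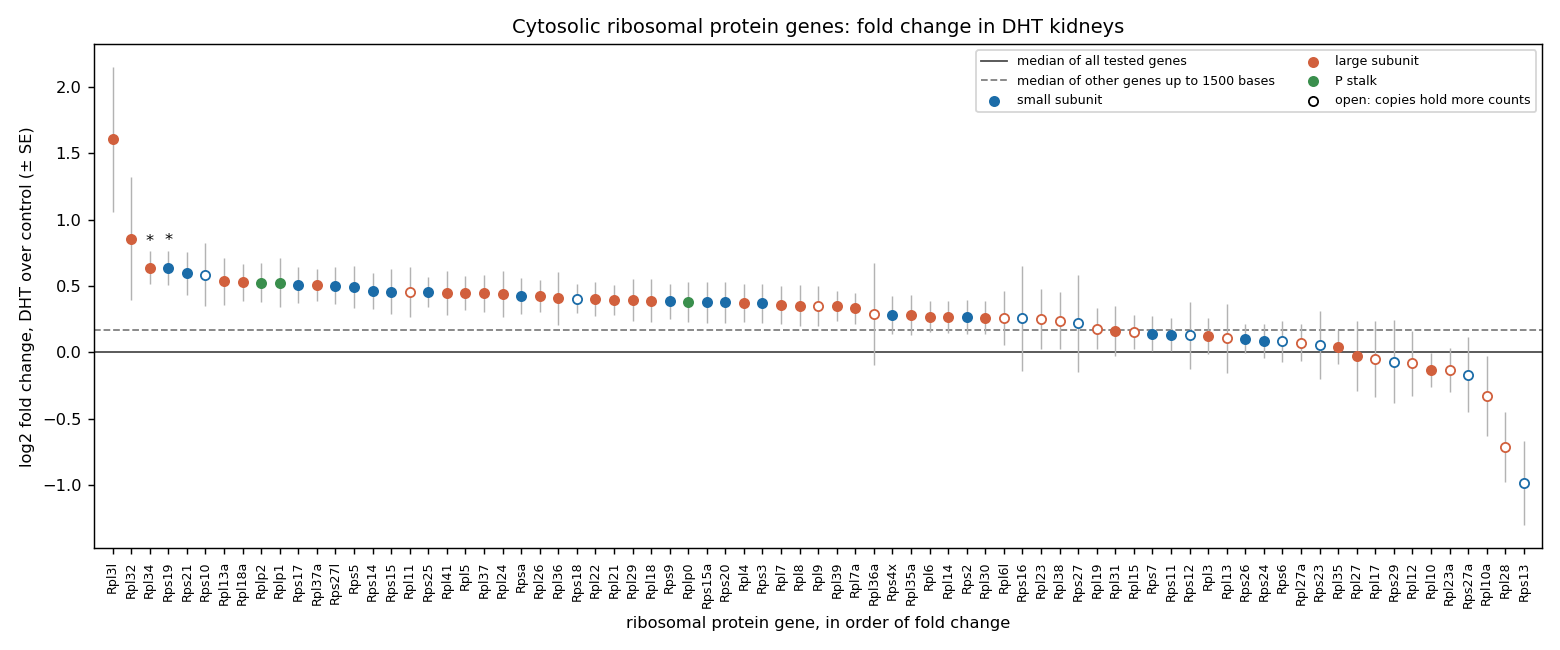
Log2 fold change of DHT over control (vertical axis) for 77 of the 78 ribosomal protein genes in order of size, with the standard error of edgeR's fit; colours give the subunit, open circles mark genes whose near-identical copies hold more counts than the gene, and stars mark genes that passed an adjusted p of 0.05. Of the 77 genes drawn 67 lie above 0, and Rpl3l at 1.61 and Rps13 at -0.99 are the ends of the range.

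Rpl34 and Rps19 were among the genes that rose. Rpl34, a protein of the large subunit (chr3:130726831-130730398, minus strand, GRCm38), had 106, 114 and 102 CPM in DHT libraries 1, 2 and 3 and 61.1, 67.3 and 78.6 CPM in control libraries 1, 2 and 3. Its groups did not overlap, and control library 3 came nearest to the DHT libraries. The log2 fold change was 0.64 ± 0.13 (SE; edgeR adjusted p = 0.0398).

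Rps19, a protein of the head of the small subunit that is mutated in human Diamond-Blackfan anaemia (chr7:24884371-24889806, plus strand), had 105, 136 and 131 CPM in DHT libraries and 79.4, 75.7 and 84.2 CPM in control libraries. DHT library 1 was the lowest of its group and still above all control libraries. Its log2 fold change was 0.64 ± 0.13 (SE; edgeR adjusted p = 0.0442).

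Each of the 3 calls lay near the threshold and was lost under other settings. Without DHT library 1 or 3, or without control library 1 or 2, 0 ribosomal protein genes were called. Without control library 3 there was 1, and without DHT library 2 there were 4. Calls over all genes, in either direction, moved as well in most of these fits. They were 19 of 15836 without DHT library 1, 0 of 15794 without DHT library 3 and 7 of 15689 without control library 2. Without control library 3 they were 89 of 15600, and without DHT library 2 they were 1224 of 15772. Without control library 1, over 15786 genes, they stayed nearer to the 437 of the full fit than in any of those fits. DESeq2 called 20, all higher in DHT, beside 5.56% of all genes called higher, and limma-voom called 1, Rpl34, beside 1.0% of all genes.

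**Figure D2:**
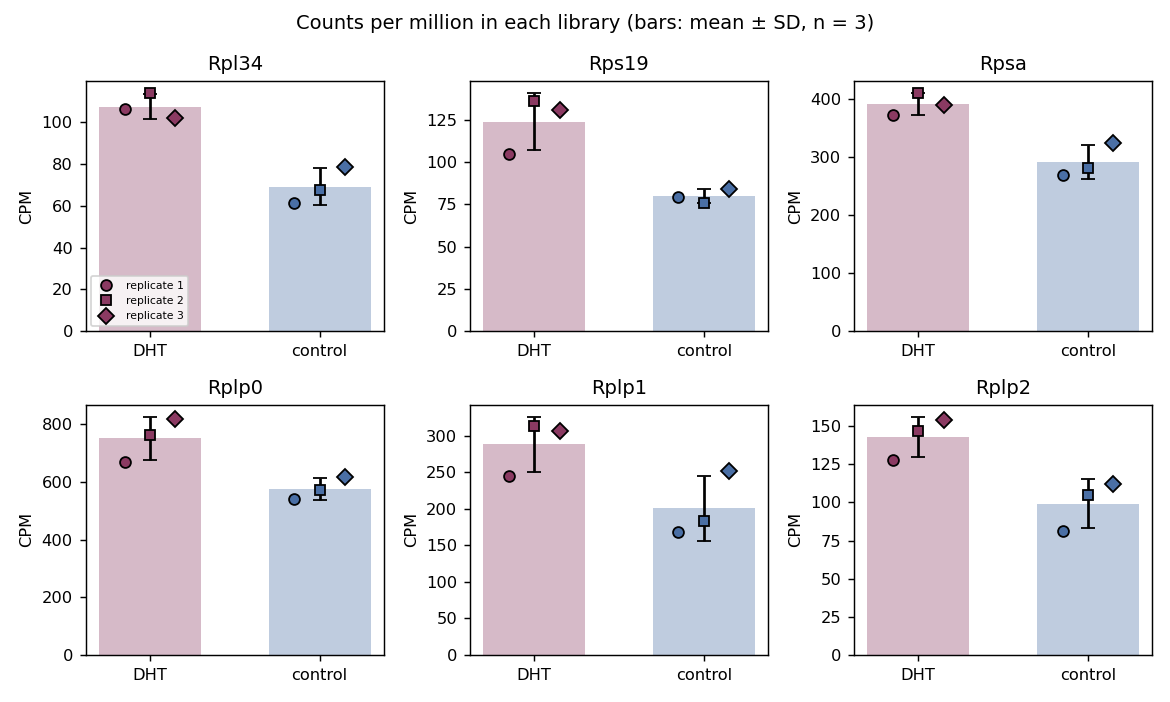
CPM (vertical axis) of Rpl34 and Rps19, which passed the test, of Rpsa and of the 3 P stalk genes, in DHT and control libraries; bars give the mean, error bars the SD over 3 libraries, and symbols the replicate number. In Rpl34, Rps19, Rpsa, Rplp0 and Rplp2 every DHT library lies above every control library, and in Rplp1 control library 3 at 251 CPM lies above DHT library 1 at 245 CPM.

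The P stalk, made of Rplp0 with pairs of Rplp1 and Rplp2, recruits the translation factors that hydrolyse GTP to the ribosome. Rplp0, its base and the ribosomal protein gene with the most counts, had 671, 763 and 820 CPM in DHT libraries and 540, 571 and 617 CPM in control libraries. Rplp1 had 245, 313 and 307 CPM in DHT libraries and 168, 183 and 251 CPM in control libraries. Rplp2 had 128, 147 and 154 CPM in DHT libraries and 81.0, 105 and 112 CPM in control libraries. The groups did not overlap in Rplp0 and Rplp2 and overlapped in Rplp1, through the low value of DHT library 1 and the high one of control library 3. The log2 fold changes were 0.38 for Rplp0, 0.52 for Rplp1 and 0.53 for Rplp2, with edgeR adjusted p-values of 0.170, 0.135 and 0.0852, so 0 of the 3 passed.

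In the small subunit 27 of 30 genes had a log2 fold change above 0, with a median of 0.37. In 17 of the 30 all DHT libraries were above all control libraries, as in 14.8% of all genes. Rpsa, also known as the laminin receptor, had 373, 410 and 389 CPM in DHT libraries and 268, 281 and 323 CPM in control libraries. Rps14, a protein of the subunit's platform that is lost in the human 5q deletion syndrome, had 256, 317 and 286 CPM in DHT libraries and 206, 193 and 224 CPM in control libraries. Rps2, a protein at the entry of the messenger channel, had 322, 329 and 371 CPM in DHT libraries and 277, 292 and 281 CPM in control libraries. In all 3 genes the groups did not overlap, and the log2 fold changes were 0.42, 0.46 and 0.26 with edgeR adjusted p-values of 0.113, 0.0921 and 0.248.

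Rps21, one of the smallest proteins of the subunit, had 122, 138 and 126 CPM in DHT libraries and 72.4, 75.7 and 107 CPM in control libraries. Control library 3 stood apart from the other 2 control libraries and below all DHT libraries. Its log2 fold change of 0.60 had an edgeR adjusted p of 0.0774. Rps27l, a paralog of Rps27 that is a target of p53 in human cells, had 125, 105 and 122 CPM in DHT libraries and 88.4, 90.3 and 69.1 CPM in control libraries. In this gene DHT library 2 was the lowest of its group and control library 3 the lowest of all, so the libraries were not ordered as in Rps21. Its log2 fold change was 0.50 (edgeR adjusted p = 0.0803), and no near-identical copy of it was found.

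Rps15, a protein close to the decoding centre, had 346, 408 and 481 CPM in DHT libraries and 263, 292 and 343 CPM in control libraries, with a log2 fold change of 0.46 (edgeR adjusted p = 0.152). The lowest DHT library was barely above the highest control library. Rps24 was far closer between groups, with 341, 355 and 310 CPM in DHT libraries and 320, 328 and 301 CPM in control libraries. Its groups overlapped and its log2 fold change was 0.08 (edgeR adjusted p = 0.727). Rps6, whose phosphorylation by S6 kinase is the standard readout of mTORC1 activity, had 14, 14.7 and 18.2 CPM in DHT libraries and 14.5, 15.9 and 13.9 CPM in control libraries. The groups overlapped and the log2 fold change was 0.08 (edgeR adjusted p = 0.782). Near-identical copies of Rps6 held more counts than the gene itself. With those summed in, its log2 fold change was 0.51 (edgeR adjusted p = 0.0651).

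In the large subunit 38 of 45 genes had a log2 fold change above 0, with a median of 0.33. In 20 of the 45 all DHT libraries were above all control libraries, as in 14.8% of all genes. Rpl5 and Rpl11 bind the 5S ribosomal RNA, and when ribosome assembly fails the free proteins bind Mdm2, the inhibitor of p53. Rpl5 had 53.1, 61.7 and 50.7 CPM in DHT libraries and 42.3, 43.5 and 35.7 CPM in control libraries, without overlap. Rpl11 had 96.2, 110 and 83.5 CPM in DHT libraries and 55.6, 65.2 and 90.6 CPM in control libraries, where control library 3 lay above DHT library 3. The log2 fold changes were 0.45 and 0.46, with edgeR adjusted p-values of 0.0874 and 0.190.

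Rpl4 and Rpl39 line the tunnel through which the new protein leaves the ribosome. Rpl4 had 520, 573 and 634 CPM in DHT libraries and 420, 445 and 468 CPM in control libraries. Rpl39 had 75.6, 81.2 and 74.0 CPM in DHT libraries and 56.8, 66.5 and 57.9 CPM in control libraries. Neither gene's groups overlapped, and the log2 fold changes of 0.37 and 0.35 had edgeR adjusted p-values of 0.163 and 0.110. Rpl41, the smallest ribosomal protein, had 380, 378 and 457 CPM in DHT libraries and 256, 285 and 349 CPM in control libraries. Its groups did not overlap, with a log2 fold change of 0.45 (edgeR adjusted p = 0.145). Rpl22, a protein that also binds RNA outside the ribosome, had 129, 164 and 151 CPM in DHT libraries and 106, 114 and 115 CPM in control libraries. All DHT libraries were above all control libraries, with a log2 fold change of 0.40 (edgeR adjusted p = 0.105).

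At the upper end of the range stood 2 genes with few counts. Rpl3l, a paralog of Rpl3 known from skeletal and heart muscle, had 63, 16 and 50 counts in DHT libraries and 8, 19 and 22 counts in control libraries, the fewest of the 78 genes. DHT library 2, at 1.0 CPM, lay below control library 3, at 1.09 CPM, so the groups overlapped. Its log2 fold change was 1.61 ± 0.55 (SE; edgeR adjusted p = 0.125). Rpl32 had 10.3, 12.3 and 7.06 CPM in DHT libraries and 2.95, 3.53 and 9.84 CPM in control libraries, where control library 3 stood with the DHT libraries. Its log2 fold change of 0.85 ± 0.46 had an edgeR adjusted p of 0.30.

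At the lower end, 10 genes had a log2 fold change under 0, and 8 of them had fewer than 1000 counts over the 6 libraries. Rps13, a protein of the subunit interface, had 1.26, 1.0 and 1.36 CPM in DHT libraries and 2.27, 2.65 and 2.28 CPM in control libraries, without overlap. Rpl28 had 2.39, 2.82 and 3.26 CPM in DHT libraries and 4.0, 5.19 and 4.70 CPM in control libraries, also without overlap. Neither passed the test, with log2 fold changes of -0.99 and -0.71 and edgeR adjusted p-values of 0.114 and 0.148. Rpl10a, a protein of the mobile L1 stalk, had 3.02, 2.94 and 1.90 CPM in DHT libraries and 2.89, 3.11 and 3.86 CPM in control libraries, and Rps27a, made as a fusion with ubiquitin, had 3.64, 4.32 and 2.67 CPM in DHT libraries and 3.32, 4.46 and 4.16 CPM in control libraries. In both the groups overlapped, DHT library 3 was the lowest of all, and the log2 fold changes of -0.33 and -0.17 had edgeR adjusted p-values of 0.537 and 0.751. The 2 genes under 0 with more counts were Rpl10 at -0.13 and Rpl23a at -0.13, with edgeR adjusted p-values of 0.554 and 0.661. Rpl23a, next to the tunnel exit, had 75.8, 75 and 49.5 CPM in DHT libraries and 73.4, 77.4 and 69.1 CPM in control libraries, and DHT library 3 alone stood apart.

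Ribosomes hold most of these proteins in about equal numbers, but the level per kilobase of transcript ranged 420-fold, with a median of 124.6 CPM per kilobase. Rps15 had the highest level, 823 CPM per kilobase in DHT libraries and 599 in control libraries, ahead of Rpl41 with 796 and 583 and Rps24 with 639 and 603. The lowest were Rpl3l, the paralog known from muscle, with 2.56 and 0.83 CPM per kilobase, Rps16 with 2.52 and 2.11, and Rps23 with 3.04 and 2.93. Near-identical copies of Rps16 and Rps23 held 4.25 and 36.4 times the counts of the gene, and for Rpl3l none was found. Rps23, a protein of the decoding centre, had 2.83, 2.82 and 2.91 CPM in DHT libraries and 2.77, 2.70 and 2.77 CPM in control libraries. Its DHT libraries were all above its control libraries, with a log2 fold change of 0.05 ± 0.26 (SE; edgeR adjusted p = 0.914). Rps16 had 2.70, 3.38 and 2.31 CPM in DHT libraries and 2.46, 1.25 and 3.31 CPM in control libraries, with groups that overlapped and a log2 fold change of 0.26 (edgeR adjusted p = 0.728).

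Most of the low levels went together with near-identical copies. A copy is here another gene whose transcript, of at most 1500 bases, matched the coding sequence on the same strand with at least 95% identity over at least 90% of its length. Of the 78 genes 72 had at least 1, with a median of 5, and the copies took up 423 rows of the table. In 26 genes the copies held more counts than the gene itself, and these included 15 of the 18 genes with fewer than 1000 counts. Which of the rows a read was counted in depends on how reads that fit several places were treated, which neither the labels nor the table say, so the values of single genes with abundant copies are uncertain.

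The sequences of 3 genes and the copy with most counts are shown because they were counted so unequally. Each is a stretch of 90 coding bases, 5′ to 3′, with the bases that differ between the gene and its copy in capitals. The stretch of Rps23 runs from coding base 1 to 90, that of Rps13 from 364 to 453 and that of Rps10 from 384 to 473.
Rps23: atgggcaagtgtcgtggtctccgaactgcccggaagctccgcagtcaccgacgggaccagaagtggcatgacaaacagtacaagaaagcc
Rps23-ps1: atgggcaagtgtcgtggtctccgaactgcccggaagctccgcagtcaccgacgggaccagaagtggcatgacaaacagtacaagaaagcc
Rps13: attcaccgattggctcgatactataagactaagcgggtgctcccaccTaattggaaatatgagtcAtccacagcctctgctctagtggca
Rps13-ps1: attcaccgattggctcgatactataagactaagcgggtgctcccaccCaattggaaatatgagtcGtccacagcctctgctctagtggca
Rps10: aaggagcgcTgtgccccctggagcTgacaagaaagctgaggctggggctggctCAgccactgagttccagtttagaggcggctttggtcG
Rps10-ps2: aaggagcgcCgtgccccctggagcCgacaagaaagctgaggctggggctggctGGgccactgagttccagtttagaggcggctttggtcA

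Rps23 had 292 counts over the 6 libraries and its copy Rps23-ps1 on chromosome 3 had 10513, though 425 of 425 aligned coding bases are identical. Rps13 had 193 counts and Rps13-ps1 on chromosome 8 had 6227, with 2 differences in 453 bases, both in the stretch shown. Rps10 had 898 counts and Rps10-ps2 on chromosome 16 had 8265, with 5 differences in 495 bases, all in the stretch shown. Each of these copies is annotated as a processed pseudogene, that is, a messenger copied back into the genome without introns. Rps29 and Rpl10a showed the same imbalance, with 212 counts beside 6117 in Gm14303 and 312 beside 5831 in Rpl10a-ps1, in each case with no difference in the aligned coding bases.

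**Figure D3:**
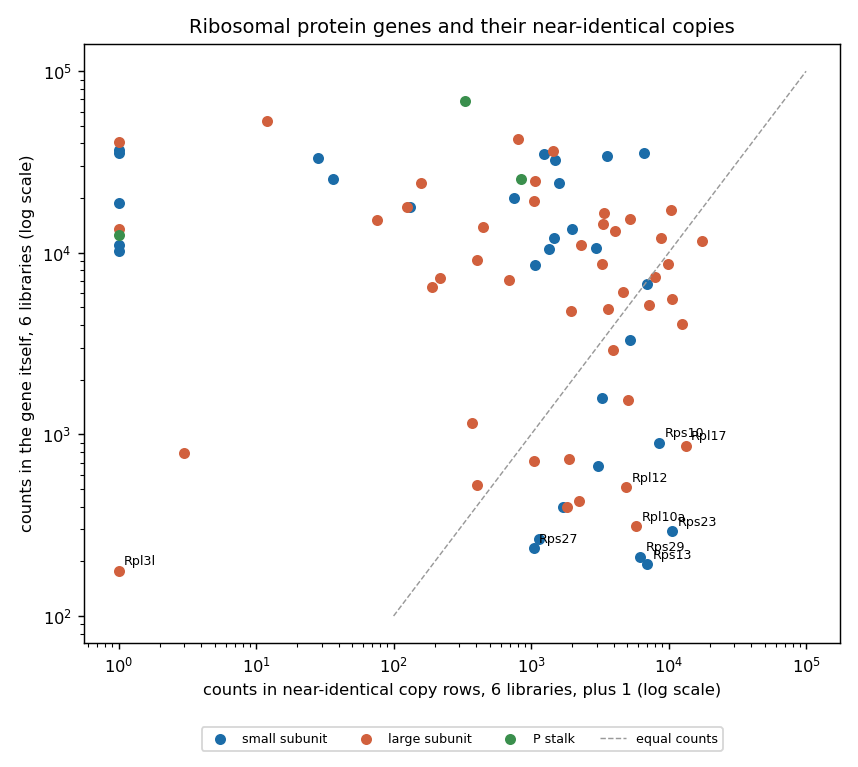
Counts over the 6 libraries in each ribosomal protein gene (vertical axis, log scale) against the counts in the rows of its near-identical copies plus 1 (horizontal axis, log scale); colours give the subunit and the dashed line marks equal counts. The 26 genes to the right of the line include Rps23 with 292 counts beside 10616 in its copies and Rps13 with 193 beside 7015.

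Fold changes differed with the share of counts held by copies. The median log2 fold change was 0.14 in the 26 genes whose copies held more counts, with 18 above 0, and 0.39 in the other 52, with 50 above 0. In the 60 genes with at least 1000 counts it was 0.38, with 58 above 0 and 36 with all DHT libraries above all control libraries. In the 18 with fewer counts it was 0.08, with 10 above 0. Over all genes tested, 14.8% had all DHT libraries above all control libraries. When the counts of each gene were summed with those of its copies, a setting added after the values were seen, 76 of 78 genes were above 0 and the median was 0.38. Rps13 moved to 0.27, Rpl28 to 0.24, Rpl10a to 0.42 and Rps27a to 0.53 on the log2 scale, none of them called by edgeR. Rps6 moved from 0.08 to 0.51 (edgeR adjusted p = 0.0651). With copies summed 3 genes were again called, Rpl34 at a log2 fold change of 0.64, Rpl13 at 0.74 and Rps18 at 0.49 (edgeR adjusted p = 0.0425, 0.0363 and 0.0496), beside 1.36% of all genes called higher. Rps19 then had an edgeR adjusted p of 0.0587, with a log2 fold change of 0.58.

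Short transcripts as a class were higher in DHT libraries, and most ribosomal protein transcripts are short. Their median length was 737.5 bases, against 2392.5 bases for the other tested genes, and 72 of the 78 had at most 1500 bases. These 72 had a median log2 fold change of 0.31, with 62 above 0 and 35 with all DHT libraries above all control libraries. Among the 3847 other genes of at most 1500 bases the median log2 fold change was 0.17, and 65.7% were above 0. In 25.5% of them all DHT libraries were above all control libraries. Restricted to the 2100 of these with a mean of at least 10 CPM, the median was 0.21, 75.3% were above 0 and in 35.7% all DHT libraries were above all control libraries. The difference between these sets of genes was not tested, since genes of the same libraries are not replicates.

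**Figure D4:**
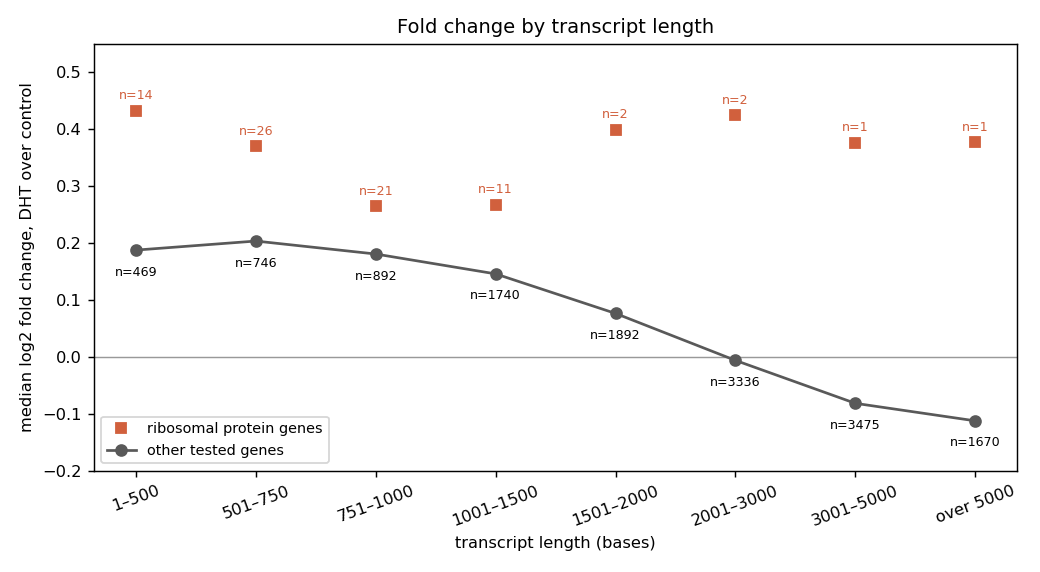
Median log2 fold change of DHT over control (vertical axis) by class of transcript length in bases (horizontal axis), for ribosomal protein genes (squares) and other tested genes (circles), with the number of genes at each point. The ribosomal protein genes lie above the other genes in every class, with 2 or fewer of them in each class over 1500 bases, and the other genes run from 0.19 in the shortest class to -0.11 over 5000 bases.

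The slope of log2 CPM on log2 length, relative to the control mean and over 14220 other genes, was -0.08, -0.06 and -0.10 in DHT libraries 1, 2 and 3 and 0.02, -0.02 and -0.00 in control libraries 1, 2 and 3. The DHT libraries were all steeper than the control libraries, with a difference of -0.079 (two-sided exact permutation test, p = 0.1, the smallest that 3 against 3 can give). In the classes up to 500, 500 to 750, 750 to 1000 and 1000 to 1500 bases the ribosomal protein genes had medians of 0.43, 0.37, 0.26 and 0.27, while the other genes had 0.19, 0.20, 0.18 and 0.15. The classes hold 14, 26, 21 and 11 ribosomal protein genes.

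The 6 ribosomal protein genes over 1500 bases by their median transcript length were Rpl4, Rpl5, Rpl22, Rpsa, Rps15a and Rps20. Their log2 fold changes ran from 0.37 to 0.45, while the 10373 other genes over 1500 bases had a median of -0.04. In 4 of the 6 the groups did not overlap, and 0 passed the test. Rps15a and Rps20 have median transcript lengths of 5130 and 3706 bases and coding lengths of 390 and 357 bases. These are lengths of annotated transcripts, and which of them were expressed was not tested.

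Removing each library's trend with length lowered the values of ribosomal protein genes. After it the median log2 fold change was 0.19, 56 of 78 genes were above 0 and 0 were called, beside 0.696% of all genes called higher. Rpl34 and Rps19 then had 0.46 and 0.47, with edgeR adjusted p-values of 0.0823 and 0.0943. Rps6, Rps23 and Rps24 turned to -0.07, -0.09 and -0.10. The same correction left the 6 ribosomal protein genes over 1500 bases at a median of 0.42 and the 3847 other short genes at 0.03. It raised Rps15a from 0.38 to 0.51 and Rps20 from 0.38 to 0.47. With lengths of principal transcripts instead, the median of the 78 genes was 0.14 and 53 were above 0. As the correction is fitted to all genes of a library, it also removes any change that short genes share for another reason.

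The libraries differed within groups. The median over the 78 genes of log2 CPM minus the control mean was 0.23, 0.43 and 0.34 in DHT libraries 1, 2 and 3 and -0.08, -0.03 and 0.12 in control libraries 1, 2 and 3. The other short genes had medians of 0.14, 0.12 and 0.20 in the DHT libraries and -0.03, 0.02 and 0.02 in the control libraries. DHT library 2, the highest in ribosomal protein genes, was thus the lowest DHT library in other short genes. It held the highest of the 6 values in 41 of the 78 genes, and control library 1 held the lowest in 43. With the length correction the medians of the 78 genes were 0.10, 0.28 and 0.20 in DHT libraries and -0.05, -0.04 and 0.08 in control libraries, still without overlap. The 18 genes with fewer than 1000 counts had 0.13, 0.26 and -0.34 in DHT libraries and -0.06, -0.06 and 0.21 in control libraries, where DHT library 3 was the lowest of all.

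**Figure D5:**
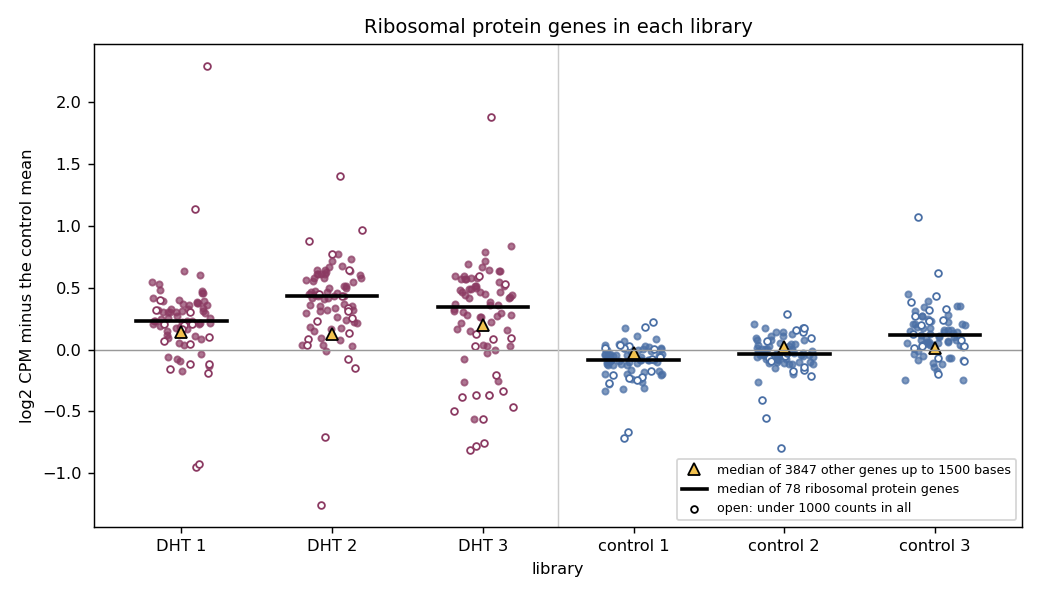
Log2 CPM minus the control mean (vertical axis) of the 78 ribosomal protein genes in each library, with open circles for genes under 1000 counts, black bars for their median and triangles for the median of 3847 other genes of at most 1500 bases. The medians of the ribosomal protein genes lie between 0.23 and 0.43 in DHT libraries and between -0.08 and 0.12 in control libraries.

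Ribosomal protein genes held 0.982%, 1.26% and 1.08% of all counts in DHT libraries 1, 2 and 3 and 0.849%, 0.878% and 1.05% in control libraries 1, 2 and 3. DHT library 1 lay below control library 3, so the groups overlapped. The mean share was 1.11% ± 0.142 in DHT libraries and 0.926% ± 0.108 in control libraries (SD, n = 3 each), a difference of 0.181 percentage points (two-sided exact permutation test, p = 0.2, where 0.1 is the smallest possible). Without DHT library 2 the difference was 0.103 percentage points. The copies held 0.230%, 0.30% and 0.241% in DHT libraries and 0.192%, 0.200% and 0.243% in control libraries.

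Markers of other cell types also differed between libraries, and DHT library 2 had the highest summed level of macrophage and of lymphocyte markers. The summed level of 10 macrophage markers, all detected, was 117, 409 and 256 CPM in DHT libraries and 118, 173 and 253 CPM in control libraries. Of 12 lymphocyte markers 9 were tested. Their sum was 23.5, 60.7 and 23.0 CPM in DHT libraries and 22.4, 25.9 and 29.6 CPM in control libraries. Ptprc held 15.4, 41.8 and 13.1 CPM of it in DHT libraries and 15.9, 15.1 and 16.7 CPM in control libraries. Of the macrophage markers 0 were called by edgeR and 9 of 10 had a log2 fold change above 0. Of the 9 lymphocyte markers tested 0 were called and 7 were above 0. Csf1r, the macrophage marker below 0, and Cd3g were highest in control library 3, at 90.7 and 2.13 CPM. Cd79a was highest in control library 1, at 0.92 CPM. The 5 red blood cell markers tested summed to 59.9, 123 and 58.7 CPM in DHT libraries and 89.5, 105 and 160 CPM in control libraries. A large part of this was Slc4a1, which collecting duct cells also express. It held 57.0, 54.5 and 54.5 CPM in DHT libraries and 67.5, 68.1 and 153 CPM in control libraries. Hbb-bs had 1.70, 38.4 and 2.55 CPM in DHT libraries and 12.1, 21.4 and 3.76 CPM in control libraries. Hba-a1, Hbb-bt and Alas2 were, like Hbb-bs, highest in DHT library 2. Endothelial markers summed to 476, 831 and 482 CPM in DHT libraries and 485, 517 and 621 CPM in control libraries, again highest in DHT library 2. Among them Plvap was highest in control library 3 and Ehd3 in DHT library 3. Control library 3 was the highest in markers of the loop of Henle, with 7133, 6236 and 8003 CPM in DHT libraries and 6656, 9251 and 14370 CPM in control libraries. It was also the highest in summed collecting duct markers. These were 1061, 1012 and 965 CPM in DHT libraries and 868, 771 and 1371 CPM in control libraries. Among them control library 3 was highest in Aqp2 (335 CPM), Aqp3, Avpr2, Fxyd4, Hsd11b2 and Slc4a1. It was not highest in Atp6v1g3, Foxi1 or Scnn1g, and in Slc26a4 it was the lowest, at 115 CPM. Among loop of Henle markers it was highest in Umod, Slc12a1, Egf and Cldn10, and not in Cldn16 or Sfrp1. Distal tubule markers summed to 3890, 3101 and 3117 CPM in DHT libraries and 5454, 3465 and 2895 CPM in control libraries. Control library 1 was the highest in each of these 6 genes. Mesenchyme markers summed to 182, 278 and 204 CPM in DHT libraries and 280, 190 and 389 CPM in control libraries. Of these 8 genes, 0 had a log2 fold change above 0. Podocyte markers summed to 564, 842 and 659 CPM in DHT libraries and 728, 642 and 596 CPM in control libraries, with all 6 above 0. In proximal tubule markers, given above, DHT library 2 lay with the control libraries. Without DHT library 2 and control library 3 together, a setting added after the values were seen, the median of the 78 ribosomal protein genes was 0.34, 68 were above 0 and 10 were called, beside 4.67% of all genes called higher. The part of any of these cell types in the values of ribosomal protein genes was not tested.

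Ribosomal proteins whose symbols fall outside the rule were close to those inside it. Of 10 tested, 9 had a log2 fold change above 0, with a median of 0.37, and 0 were called by edgeR. Rps3a1, a small subunit protein, had 236, 272 and 242 CPM in DHT libraries and 197, 188 and 192 CPM in control libraries, without overlap and with a log2 fold change of 0.38 (edgeR adjusted p = 0.111). Fau, which encodes a ribosomal protein fused to a ubiquitin-like protein, had a log2 fold change of 0.51, and Rack1, a signalling scaffold on the small subunit, had 0.18. Rpl7l1, Rpl36al and Rpl22l1, paralogs of Rpl7, Rpl36a and Rpl22, had 0.45, 0.36 and 0.34. The edgeR adjusted p-values of these 5 genes ran from 0.0663 for Rpl7l1 to 0.476 for Rack1. Ribosomal protein pseudogene rows, known by their names, had a median log2 fold change of 0.39 over 61 tested, with 52 above 0. Of them 2 rose, Rpsa-ps10 at 0.74 (edgeR adjusted p = 0.0376) and Rpl3-ps1 at 0.62 (edgeR adjusted p = 0.0381), beside 1.38% of all genes.

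Genes that act with the ribosome were also mostly higher in DHT kidneys, by less than their test required. All 12 translation elongation factors tested had a log2 fold change above 0, with a median of 0.24 and 0 called. Eef1a1, which brings transfer RNAs to the ribosome, had 4215, 4778 and 4737 CPM in DHT libraries and 3550, 3505 and 3478 CPM in control libraries. Its groups did not overlap, with a log2 fold change of 0.38 (edgeR adjusted p = 0.215). Eef2, which moves the ribosome along the messenger, had 1589, 1622 and 2108 CPM in DHT libraries and 1484, 1478 and 1490 CPM in control libraries, with DHT library 3 apart from the other 2 and a log2 fold change of 0.26 (edgeR adjusted p = 0.400). Initiation factors had a median of 0.17 over 42 genes, with 35 above 0 and 0 called. Other messengers with a TOP motif had a median of 0.26 over 27 genes, with 23 above 0 and 0 called. Among them Tpt1 had 0.47 and Pabpc1, the poly(A)-binding protein, 0.39 (edgeR adjusted p = 0.240 and 0.135).

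Few genes of ribosome assembly and its regulators passed the test, as over all genes tested, where 1.38% were called higher. Of 54 biogenesis factors 38 were above 0, with a median of 0.14, and 2 rose, Nop16 at 0.64 and Imp3 at 0.64 (edgeR adjusted p = 0.0376 and 0.0391). Imp3 is part of the complex that processes the small subunit's RNA. Npm1, Ncl and Fbl, abundant proteins of the nucleolus, had log2 fold changes of 0.23, 0.32 and -0.33, with edgeR adjusted p-values of 0.401, 0.260 and 0.267. Of 21 genes of RNA polymerase I and its factors, which make ribosomal RNA, 13 were above 0 with a median of 0.18 and 0 were called. Myc, a transcription factor that raises ribosome production, had -0.50 (edgeR adjusted p = 0.409). In the mTORC1 pathway 14 of 28 were above 0, with a median of 0.01, and 1 rose, Lamtor4 at 0.52 (edgeR adjusted p = 0.0453). Mtor had 121, 51.7 and 116 CPM in DHT libraries and 53.9, 53.0 and 48.3 CPM in control libraries, so DHT library 2 lay with the control libraries (log2 fold change 0.89, edgeR adjusted p = 0.129). Larp1 had -0.19 (edgeR adjusted p = 0.310). Of 21 genes of cytosolic aminoacyl-tRNA synthetases and their complex, 17 were above 0 with a median of 0.19. Of the 21, 1 rose, Aimp1, an accessory protein of the complex and not a synthetase, at 0.59 (edgeR adjusted p = 0.0373).

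Genes of other large complexes with mostly short transcripts were also mostly higher. Mitochondrial ribosomal proteins, which make up the separate ribosome of the mitochondrion, had a median log2 fold change of 0.30 over 76 genes, with 73 above 0, and 0.23 after the length correction. Of them 3 rose, Mrps18c at 0.58, Mrps9 at 0.53 and Mrpl12 at 0.66 (edgeR adjusted p = 0.0385, 0.0405 and 0.0474). Nuclear respiratory chain subunits had a median of 0.22 over 80 genes, with 72 above 0, and 0.08 after the correction, and 1 rose, Ndufb4 at 0.90 (edgeR adjusted p = 0.0373). Proteasome subunits had a median of 0.39 over 35 genes, with 33 above 0, and 0.32 after the correction, and 6 rose, among them Psma2 at 0.58 and Psmd10 at 0.70 (edgeR adjusted p = 0.0371 for both). In each of these 3 lists 0 genes fell. Over all genes tested 1.38% were called higher, and 2.81% of the 3847 other genes of at most 1500 bases. DHT library 2 was the lowest DHT library in all 3, with medians of 0.13, 0.10 and 0.24 on the log2 scale relative to the control mean, while it was the highest in the cytosolic ribosomal protein genes. Whether the lists differ from one another was not tested.

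The 5 rows that carried a fitting symbol but missed the count minimum were Rpl10l, Rpl32l, Rpl39l, Rps28 and Rps4l. Rpl10l, a paralog used in the testis, had 0 counts in all libraries. Rps28, a small subunit protein present in every ribosome, had 3, 4 and 3 counts in DHT libraries and 0, 0 and 1 in control libraries, while its 7 near-identical copies held 6521 counts. Rps4l had 1, 1 and 2 counts in DHT libraries and 1, 0 and 7 in control libraries. Rpl32l had 0 counts in DHT libraries and 5, 1 and 2 in control libraries, and Rpl39l had 1 count in DHT library 3 and 1 in control library 3. Rpl6l, which met the minimum with a log2 fold change of 0.26, is itself annotated as a processed pseudogene.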

How the data were processed

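RNA sequencing of mouse kidney was analysed in 6 libraries, 3 DHT and 3 control. The deposited table gives raw, unnormalized read counts for 46095 gene symbols, and 20681 of them have no count in any library. HISAT2 2.0 and mm10 are the aligner and build named, per the submitters' processing notes. The counting tool, its annotation, strand setting and treatment of reads that fit several places are not stated in the labels or the table.

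Counts were filtered with edgeR 4.0.16 (filterByExpr, minimum count 10, minimum total 15) in R 4.3.3, scaled by TMM, and tested with a robust quasi-likelihood fit on group, adjusted by Benjamini-Hochberg over 15367 genes at 0.05. The common biological coefficient of variation was 0.217. SE values are those implied by the F statistic. Symbols were matched to GENCODE M21 models on GRCm38, the assembly of mm10. All 78 ribosomal protein genes and 93.0% of tested genes had a length, taken as the median over basic transcripts. Length and GC corrections used loess (span 0.3) offsets. Copies were found with BLAST 2.17.0. Promoter windows are from RefSeq (GRCm38.p6). The script was tested on simulated data.

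Other settings were median-ratio size factors, total counts, TMM without the ribosomal protein or mitochondrial genes, other filters, DESeq2 1.42.0, limma-voom (limma 3.58.1), no robust step, a replicate block and leaving out each library. Members and lists were chosen with earlier results of these data known. Members named with values were chosen by role, by the 5 highest and 5 lowest fold changes, the 3 smallest p in each direction, the 3 highest and 3 lowest levels per kilobase and any call; Rpl10, Rps29 and Rpl6l, the genes with printed promoters and some list members were chosen after their values were seen. The results of some single genes are not reported here. No library was a repeat of another of its group, since the 6 pairs within groups differed beyond counting error. Depth was 15054763 to 19331942 counts per library.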

Additional observations from a re-analysis of the deposited data

How the results depend on the processing

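The count of all genes called, 437, became 852 with no low-count filter, 1634 with DESeq2, 663 with the GC correction, 223 with the length correction, 275 with both, 213 with lengths of principal transcripts, 85 with the replicate block, 1202 without DHT library 2 and control library 3, 1528 at a threshold of 0.1, and 0 to 1224 when single libraries were left out. The count of ribosomal protein genes called, 3, became 0 with total counts, the length correction, both corrections, principal lengths and the replicate block, 1 with limma-voom, 5 with the GC correction, 10 without DHT library 2 and control library 3, 15 at a threshold of 0.1, 20 with DESeq2, and 0 to 4 when single libraries were left out. Their median log2 fold change, 0.35, became 0.19 with the length correction, 0.19 with both and 0.14 with principal lengths. It was 0.29 to 0.40 when single libraries were left out, and 0.25 with total counts, which set the median of all genes at -0.10. The cause of these shifts was not tested. The difference in share of counts was 0.103 to 0.243 percentage points and that in slope -0.090 to -0.067 without single libraries.

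The labels do not say whether replicate numbers pair the libraries. Deviations of same-numbered libraries correlated at 0.07, -0.15 and 0.04 for numbers 1, 2 and 3. Those of differently numbered libraries correlated at -0.13 to 0.13. As the deviations are from means of 3 libraries, these values cannot exclude pairing. The replicate block left 85 calls over all genes, 0 of them ribosomal protein genes, and a median of 0.35. Of 67 single genes compared, 57 kept their direction under all settings run. With copies summed, log2 fold changes turned to 0.416 for Rpl10a, 0.076 for Rpl23a, 0.240 for Rpl28, 0.266 for Rps13 and 0.530 for Rps27a. Total counts turned Rps23, Rps24 and Rps6 to -0.052, -0.013 and -0.025, the length correction to -0.091, -0.100 and -0.072, both corrections to -0.115, -0.125 and -0.083, and principal lengths to -0.150, -0.021 and -0.132. When libraries were left out, Rpl23a ran from -0.273 to 0.043, Rps27a from -0.345 to 0.0012, Rps6 from -0.041 to 0.158, Rps16 from -0.049 to 0.596 and Npm1 from -0.0089 to 0.310.

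With 3 libraries a group, single-value permutation tests could not fall below 0.1. Genes under 1000 counts, mostly those with abundant copies, are the least certain.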
